A study of Mus musculus with 2 samples.

Results

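The lipid handling genes are 9 genes of the 27998 in the deposited gene list, chosen by symbol and each found once: Apoe, Abca1, Pltp, Lpl, Cd36, Fabp5, Lgals3, Elovl6 and Plin2. They were chosen with earlier results of these data known. The raw unique molecular identifiers (UMIs, each a counted RNA molecule) of these genes were summed over macrophages, monocytes, dendritic cells and lymphocytes of B16 melanoma, a transplantable tumor line of C57BL/6 mice. Both groups were Vav-cre human LAIR1 transgenic mice that lack mouse LAIR1 (mLAIR1-/-), aged 6 to 8 weeks, and differed in the antibody they received: h219-LLG, an antagonist of human LAIR1, or the isotype control. Vav-cre drives the transgene in blood cells, and no gene in the list measures it. Live mouse CD45+ cells of the subcutaneous tumors were sorted for droplet-based scRNAseq, with 1 library per group. How many mice were pooled into a library is not stated in the sources used here. Tumors were started with 500000 B16 cells, the 3 antibody doses (10 mg/kg, 4 days apart) began on day 5, and tumors were taken on day 16.

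LAIR1 is an inhibitory receptor of leukocytes that binds collagens and the complement protein C1q. Macrophages take up fatty acids and cholesterol from lipoproteins and dying cells, store them as esters in lipid droplets, and export cholesterol to lipoproteins. Cholesterol export genes are switched on by the sterol-sensing nuclear receptors LXR, and fatty acid uptake genes by the PPAR nuclear receptors. Apoe is the apolipoprotein that accepts exported cholesterol, Abca1 is the transporter that loads it, and Pltp transfers phospholipids between lipoproteins. Lpl releases fatty acids from triglycerides, Cd36 is a scavenger receptor that brings fatty acids and oxidized lipoproteins into the cell, and Fabp5 carries fatty acids in the cytosol. Elovl6 lengthens saturated fatty acids, Plin2 coats lipid droplets, and Lgals3 encodes galectin-3, a lectin abundant in lipid-laden macrophages.

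The promoters of Abca1 and Apoe, the exporter and its acceptor, are shown because both genes are textbook LXR targets, and in C1q macrophages Abca1 was called lower with h219-LLG and Apoe was not called. The bases are the 250 before the RefSeq start site on GRCm38.p6, read on the strand of the gene, with matches to 3 motifs in capitals. For Abca1 they cover chr4:53159896-53160145 and for Apoe chr7:19699189-19699438, both on the minus strand.
Abca1: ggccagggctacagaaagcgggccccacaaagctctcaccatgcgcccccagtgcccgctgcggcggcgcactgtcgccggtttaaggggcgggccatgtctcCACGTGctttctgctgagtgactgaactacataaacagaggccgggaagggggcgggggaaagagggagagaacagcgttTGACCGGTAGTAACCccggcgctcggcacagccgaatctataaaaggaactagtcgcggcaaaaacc
Apoe: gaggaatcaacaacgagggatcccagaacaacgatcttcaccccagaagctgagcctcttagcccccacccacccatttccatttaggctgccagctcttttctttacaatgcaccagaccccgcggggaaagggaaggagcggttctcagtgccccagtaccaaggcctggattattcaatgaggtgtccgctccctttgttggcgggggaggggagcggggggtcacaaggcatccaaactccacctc
The motifs were an LXR-type direct repeat (GGTTA and GGTCA with 5 free bases between), an E-box (CACGTG) and a sterol regulatory element (TCACNCCAC), searched on both strands, with no overlap between matches. The Abca1 window holds the direct repeat on its reverse strand with its leftmost base at position -67 from the start site, and the E-box at -147. Of 32851 RefSeq windows of this length, 0.0457% hold the direct repeat, 6.02% the E-box and 1.05% the sterol element. None of the 3 motifs was found in the 8 windows of the 6 other members that the RefSeq table lists (3 windows for Apoe, of which the most upstream is shown). A match is a run of letters and no evidence that a factor binds there. Abca1 was known as an LXR target before the search, so its match is no independent support. Only this spelling of the repeat was searched, and only in these windows. The lack of a match for Apoe therefore says nothing about other forms of the repeat or sites farther away. Whether the windows bear on the calls was not tested.

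On mm10 (GENCODE vM21), Apoe lies at chr7:19696109-19699188, Abca1 at chr4:53030787-53159895, Pltp at chr2:164839518-164857711, Lpl at chr8:68880491-68907448 and Cd36 at chr5:17781690-17888801. Fabp5 lies at chr3:10012548-10016607, Lgals3 at chr14:47367751-47386160, Elovl6 at chr3:129532355-129638495 and Plin2 at chr4:86648386-86670060. Pltp overlaps Ctsa, and Elovl6 overlaps Gm35986, both on the opposite strand, where the strand of a read decides between them. Elovl6 also overlaps Gm43072 on its own strand, a gene model outside the deposited gene list, and reads from it could not be told apart from Elovl6 there.

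The h219-LLG library held 8807 barcodes and 48834592 UMIs and the control library 6133 and 40339654. After filtering, 6909 and 5332 cells remained, with a median of 4866 and 5648.5 UMIs, and 6 barcode sequences of these cells occurred in both libraries. Cells were gated on UMIs of marker genes that include no member, and the names of the gates stand for these rules. C1q macrophages (at least 3 UMIs of C1qa, C1qb and C1qc) numbered 164 with h219-LLG and 101 in control, with medians of 5876.5 and 4080 UMIs per cell. Macrophages with at least 3 UMIs of Spp1 and Arg1 that missed the C1q gate numbered 52 and 33, classical monocytes 190 and 77, patrolling monocytes 43 and 55, plasmacytoid dendritic cells 39 and 105, naive-like T cells 3049 and 2205, and B cells 2291 and 1704. The sorted surface protein was counted as Ptprc RNA at 311 to 2420 UMIs per 1000000 (CPM) across the immune gates. Values below are h219-LLG first and control second. CPM are relative to all UMIs of the gate and library, intervals are at 95%, exact and cover counting error alone, and a ratio (h219-LLG over control) was given for genes with at least 50 UMIs in gates of at least 20 cells per library. With 1 library per group, no difference can be set against the spread between mice, and no test was possible. A gene was called higher at a ratio of at least 1.5 and lower at the inverse or less.

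The members were counted in different cells. Apoe was highest in C1q macrophages in both libraries, at 4926 (4812 to 5042) and 3852 (3707 to 4002) CPM. Patrolling monocytes followed with 3720 CPM with h219-LLG, where Spp1 or Arg1 macrophages held 2638 CPM, and the order of these gates was the inverse in control, at 1913 and 2474 CPM. Lpl, the triglyceride lipase, was highest in C1q macrophages too, at 519 (483 to 558) and 515 (463 to 572) CPM, which overlapped with Spp1 or Arg1 macrophages with h219-LLG but not in control. In plasmacytoid dendritic cells no UMI of Lpl was counted in either library, where 3 UMIs would make 8.24 and 2.31 CPM. The exact intervals reach up to 10.1 and 2.83 CPM. Cd36 was highest in patrolling monocytes, at 362 CPM (298 to 435) and 500.2 CPM (438 to 569). Abca1 was at 153 (121 to 191) and 134 (95.3 to 183) CPM in Spp1 or Arg1 macrophages. It was at 85.7 and 140.4 CPM in C1q macrophages and at 92.2 and 98.9 CPM in B cells, so that C1q macrophages and B cells overlapped in their intervals with h219-LLG, and both macrophage gates did in control. Lgals3 and Plin2 were highest in Spp1 or Arg1 macrophages, Lgals3 at 4976 and 7032 CPM and Plin2 at 772 and 1144 CPM. Fabp5 was highest in migratory dendritic cells in the h219-LLG library (2872 CPM, 2688 to 3066) and in C1q macrophages in the control library (2874 CPM, 2749 to 3003).

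Pltp, the phospholipid transfer protein, was highest outside the macrophages. Plasmacytoid dendritic cells held 242 Pltp UMIs in h219-LLG cells (665 CPM, 584 to 754) and 798 in control cells (613 CPM, 571 to 657), found in 84.6% and 93.3% of these cells. In B cells 5.24% and 3.64% of cells held a Pltp UMI, at medians of 3507 and 4243 UMIs per cell against 9243 and 12217 in plasmacytoid dendritic cells. The ratio in plasmacytoid dendritic cells was 1.08 (0.936 to 1.25). These cells were 0.564% of the h219-LLG library and 1.97% of the control library, and carried 19.4% and 65.4% of all Pltp UMIs.

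**Figure D1:**
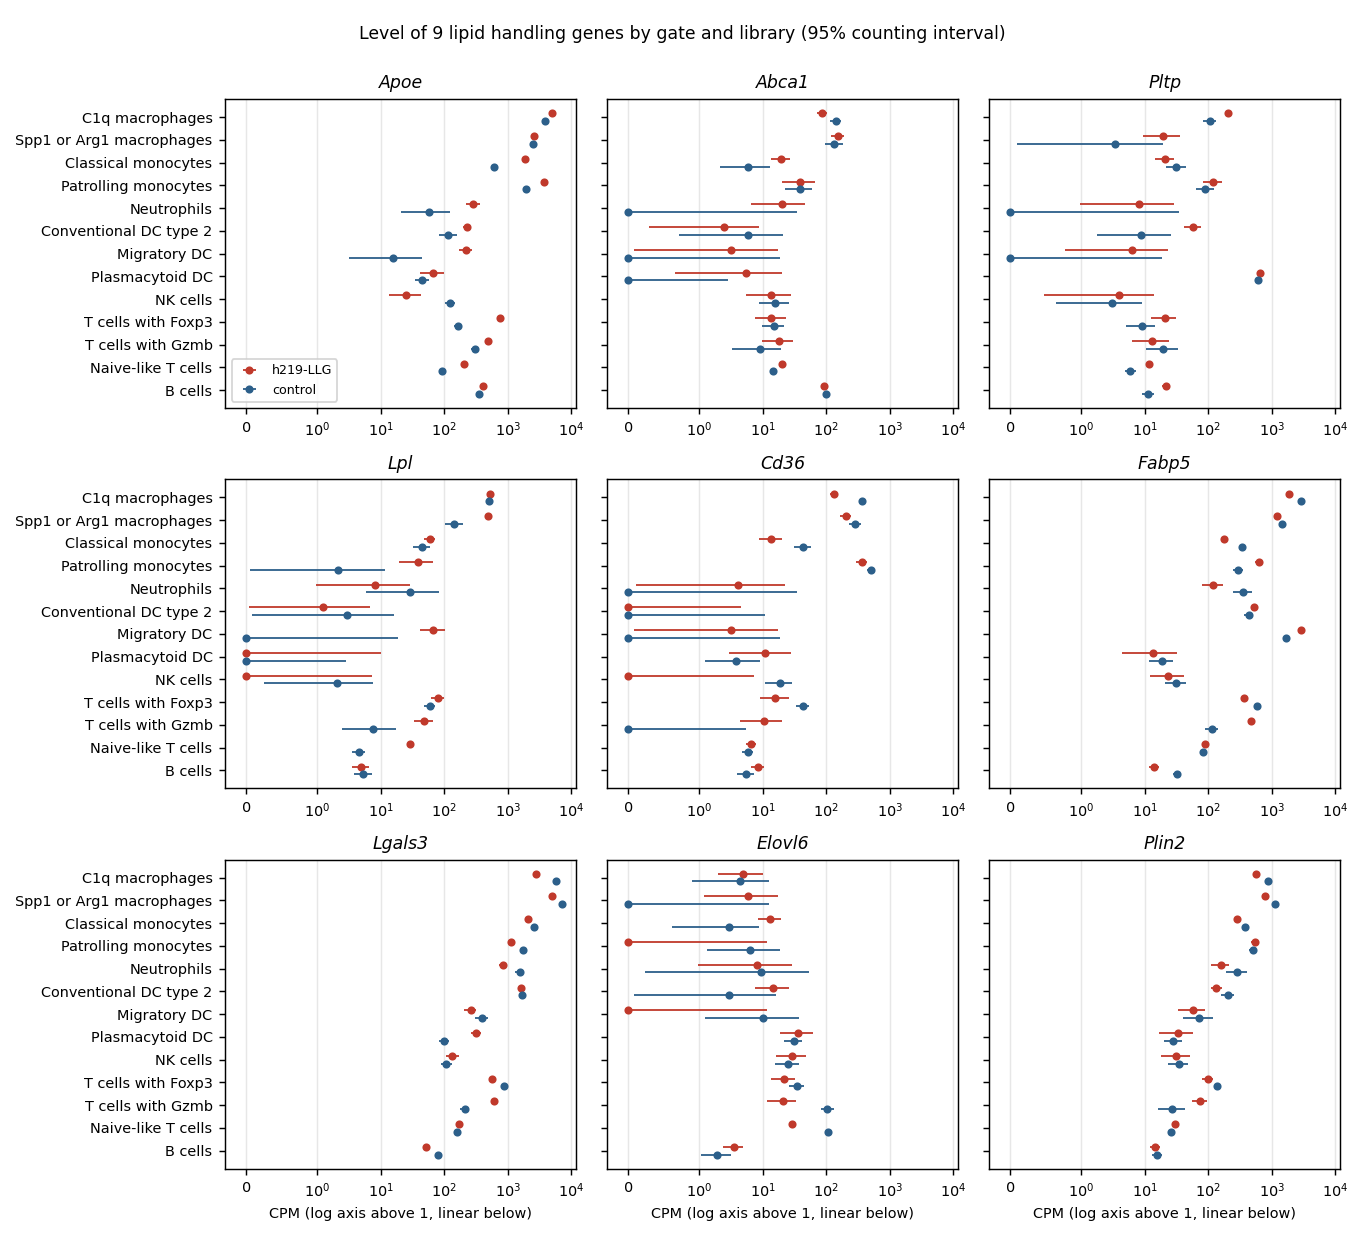
Level of each lipid handling gene (CPM, log axis above 1 and linear below) in 13 gates, with h219-LLG in red and control in blue; bars are exact 95% Poisson intervals. Pltp peaks in plasmacytoid dendritic cells (665 and 613 CPM), and the members other than Elovl6 in macrophages, monocytes or migratory dendritic cells. In control Elovl6 is highest in naive-like T cells (107 CPM), overlapping with T cells with Gzmb (105 CPM). With h219-LLG it is highest in plasmacytoid dendritic cells (35.7 CPM, 19.0 to 61.1), overlapping with naive-like T cells (29.0 CPM).

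In C1q macrophages, Cd36, Fabp5, Lgals3, Plin2 and Abca1 were lower with h219-LLG, and Pltp was higher. Of 8 members with enough UMIs, 1 was called higher and 5 lower, whereas 18.6% of all 4902 measured genes of the gate were called higher and 5.06% lower. The median log2 ratio was -0.61 over the 8 members and 0.12 over all measured genes. Elovl6, with 7 and 3 UMIs, was the member not measured here.

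Lgals3 had the narrowest interval. It counted 4023 UMIs in h219-LLG cells (2804 CPM, 2718 to 2892) and 3959 in control cells (5729 CPM, 5552 to 5911), a ratio of 0.489 (0.468 to 0.511), and 1.22% of measured genes had a lower ratio. The median cell held 20.5 Lgals3 UMIs per 10000 with h219-LLG and 64.6 in control. The 90th percentile of the h219-LLG cells was 106, under the 75th percentile of control at 119. After thinning to 1000 UMIs per cell, which leaves out shallower cells, Lgals3 was found in 79.6% of 157 cells and 97.8% of 92 cells, against 1.92% and 2.06% of B cells thinned in the same way. Without thinning it was found in 159 of 164 and 101 of 101 C1q macrophages and in 7.59% and 6.87% of B cells.

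Cd36, the fatty acid scavenger receptor, had 189 UMIs (132 CPM) with h219-LLG and 257 (372 CPM) in control. Its ratio of 0.354 (0.292 to 0.429) was the lowest of the members, with 0.245% of measured genes below it. Fabp5, the fatty acid carrier, had 2720 and 1986 UMIs, or 1896 and 2874 CPM, with a ratio of 0.66 (0.622 to 0.699). Its median cell held 6.57 and 23.2 UMIs per 10000, but the 90th percentiles, at 106 and 99.7, lay near each other. After thinning, Fabp5 was found in 78 of 157 and 69 of 92 cells, against 0.962% and 1.7% of B cells. Without thinning it was found in 73.8% and 89.1% of C1q macrophages and in 3.32% and 4.93% of B cells. Plin2, the droplet coat protein, had 820 and 610 UMIs, or 572 and 883 CPM, with a ratio of 0.647 (0.582 to 0.72). As a mean over cells the ratios were 0.827 for Fabp5 and 0.716 for Plin2, and Fabp5 was at 0.784 in thinned cells, past no limit.

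**Figure D2:**
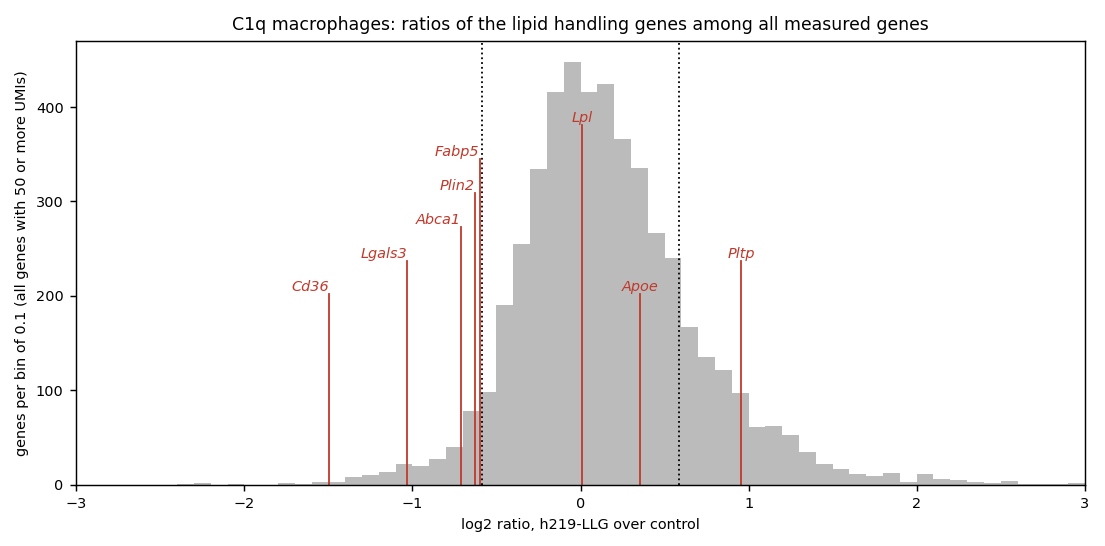
Log2 ratio (h219-LLG over control) of 4902 genes with at least 50 UMIs in C1q macrophages, in bins of 0.1 (grey), with 8 lipid handling genes marked in red and the limits of the calls dotted. Cd36, Lgals3, Abca1, Plin2 and Fabp5 lie left of the lower limit, Pltp right of the upper limit, and Lpl and Apoe between.

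The export genes differed in their calls. Apoe had 7068 and 2662 UMIs in C1q macrophages, and its ratio of 1.28 (1.22 to 1.34) stayed under the limit for a call. It was below 1 in thinned cells (0.969) and as a mean over cells (0.968). Pltp had 294 UMIs (205 CPM) and 73 (106 CPM), a ratio of 1.94 (1.5 to 2.54), but 1.22 as a mean over cells, and too few of its UMIs were left in thinned cells for a ratio. Abca1 had 123 UMIs (85.7 CPM) and 97 (140.4 CPM), a ratio of 0.611 (0.464 to 0.805). A single control cell held 40.2% of the control UMIs of Abca1, and without the cell of most UMIs in each library the ratio was 0.904. Thinned, Abca1 was found in 8.28% and 8.7% of C1q macrophages and in 8.7% and 8.93% of B cells.

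In the summed UMIs, Lpl in C1q macrophages went in opposite directions in the cells with and without Spp1 or Arg1 UMIs, a division made after the values were seen. In the 51 and 37 cells that also held at least 3 UMIs of Spp1 and Arg1, Lpl had 443 UMIs (812 CPM) and 99 (276 CPM), a ratio of 2.94 (2.36 to 3.69). In the other 113 and 64 cells it had 302 UMIs (340 CPM) and 257 (773 CPM), a ratio of 0.439 (0.371 to 0.521). Split by an Spp1 UMI in thinned cells, mean Lpl UMIs per cell were 0.903 and 0.812 with Spp1 (31 and 32 cells). Without Spp1 they were 0.254 and 0.833 (126 and 60 cells). In this split the cells with Spp1 lay near each other. It differs from the split above in marker genes, minimum, cells and averaging as well as in depth. Which of these made the change was not tested. Over the whole gate the Lpl ratio was 1.01 (0.887 to 1.15), but 0.463 in thinned cells and 0.452 as a mean over cells, both past the lower limit. Lgals3 was lower in both kinds of cells, at 0.504 and 0.493, and so was Cd36, at 0.289 and 0.483. In the cells with Spp1 or Arg1, 2 of 8 members were called higher and 4 lower, beside 15.8% and 9.52% of measured genes. In the cells without, 0 were higher and 4 lower, beside 22.5% and 7.68%. The difference between the ratios was not tested.

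Within the C1q macrophages of either library, cells rich in Fabp5 were rich in Lgals3: Spearman's rho over thinned cells was 0.556 among 157 and 0.504 among 92 cells. Fabp5 ran against H2-Aa, a class II antigen presentation gene, at -0.454 and -0.4. Cells of a library share its depth and free RNA, and these values are descriptions without a test. Apoe and Lgals3 were not related with h219-LLG (rho 0.0172) and had a rho of 0.328 in control. Interferon-stimulated genes were counted with at least 5 UMIs in 30 of 164 and 6 of 101 C1q macrophages. Without these cells, Lgals3, Cd36 and Abca1 were still called lower, and Fabp5 (0.691) and Plin2 (0.717) were not, beside 17.7% of measured genes called higher and 4.46% lower.

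In Spp1 or Arg1 macrophages, Lpl was higher and the others differed less. Of 7 measured members 1 was called higher and 0 lower, beside 9.42% and 12.5% of 2239 measured genes. Lpl had 253 UMIs (496 CPM, 437 to 561) and 42 (144 CPM, 104 to 195), a ratio of 3.44 (2.47 to 4.88). These lay in 17 of 52 and 8 of 33 cells. The 6 others had ratios of 0.675 (Plin2) to 1.14 (Abca1), Lgals3 at 0.708 (0.667 to 0.75). Apoe, at 1.07 in the sums, was at 1.81 in thinned cells, and Lpl was at 5.93 with the gate minimum doubled. Spp1, which chose these cells, was itself at 1.76 in this gate. Interferon-gene cells numbered 6 and 7 here, and without them Abca1 joined the higher genes at 3.03 (77 and 13 UMIs), Lpl was at 2.10 (152 and 37 UMIs), and Fabp5 (0.512) and Lgals3 (0.621) joined the lower, beside 10.9% and 13.9% of measured genes.

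In classical monocytes, gated on Ly6c2 and Ccr2, Apoe had the highest ratio of the measured members. Its higher call was not particular to this gate: Apoe was called higher in 8 gates, T cell gates with myeloid UMIs among them. This count leaves out cycling lymphocytes and the T cells outside the Foxp3, Gzmb and naive-like gates. In the latter T cells Apoe was higher too, at 501 and 130 CPM (713 and 189 UMIs). In classical monocytes Apoe had 3413 UMIs (1880 CPM) with h219-LLG and 626 (618 CPM) in control, a ratio of 3.04 (2.79 to 3.32), and 0.43% of measured genes had a higher ratio. The median monocyte held 11.8 and 2.42 Apoe UMIs per 10000, and after thinning 59.5% of 190 and 32.5% of 77 cells held it, against 18.4% and 20.6% of B cells and 3.18% and 1.72% of naive-like T cells. Unthinned, these shares were 82.6% and 71.4% of monocytes at medians of 9295 and 13165 UMIs, 39.1% and 41.3% of B cells, and 9.41% and 5.76% of naive-like T cells. Of 7 measured members 1 was called higher and 3 lower, beside 9.99% and 5.12% of measured genes. The lower ones were Cd36 at 0.324 (0.19 to 0.543, 25 and 43 UMIs), Fabp5 at 0.53 (0.453 to 0.619, 323 and 340 UMIs) and Pltp at 0.662 (0.403 to 1.09, 38 and 32 UMIs), with 43.8% of the control UMIs of Pltp in 1 cell. Without the cell of most UMIs in each library Pltp was at 1.06. Fabp5 was at 0.732 with the gate minimum doubled and at 0.338 in thinned cells, and in the 58 and 14 monocytes with interferon genes it was at 1.98 (84 and 15 UMIs). Lgals3 was at 0.818 (0.778 to 0.86) and Plin2 at 0.759 (0.663 to 0.868). C1qa, the macrophage marker, was at 1.65 and 0 CPM in this gate. That low level was set by the gating, because cells with at least 3 C1q UMIs had already gone to C1q macrophages.

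In patrolling monocytes, gated on Ace, Treml4 and Cd300e, Apoe was higher again, with 1162 UMIs (3720 CPM) and 895 (1913 CPM) and a ratio of 1.95 (1.78 to 2.12). Fabp5 was higher here, in contrast to the gates above: 194 UMIs (621 CPM) and 139 (297 CPM), a ratio of 2.09 (1.67 to 2.62). They lay in 14 of 43 and 25 of 55 cells, and 25.8% of the h219-LLG UMIs in a single cell. Lgals3 was lower at 0.636 (0.56 to 0.722). Of 6 measured members 2 were thus called higher and 1 lower, beside 8.48% and 10.8% of measured genes.

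**Figure D3:**
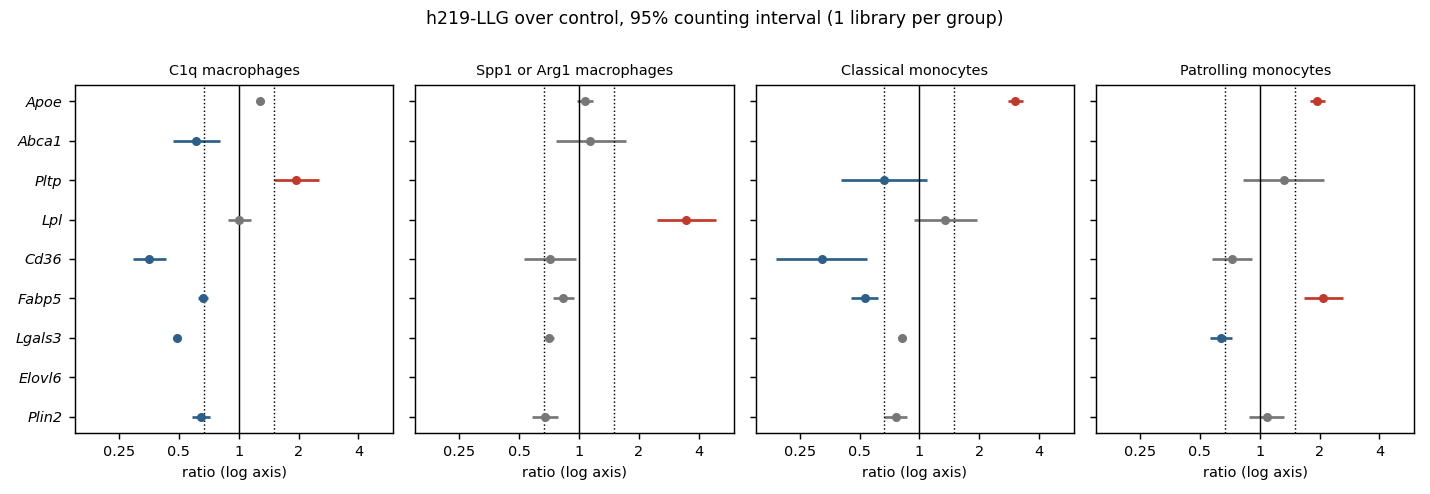
Ratio (h219-LLG over control, log axis) of each member in 4 myeloid gates with exact 95% counting intervals; red is called higher, blue lower, grey neither, dotted lines are the limits, and members under 50 UMIs are left blank. Apoe sits right of the upper limit in both monocyte gates (3.04 and 1.95). It sits between the limits in C1q macrophages (1.28) and in Spp1 or Arg1 macrophages (1.07), and Lgals3 sits left of 1 in each gate.

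**Figure D4:**
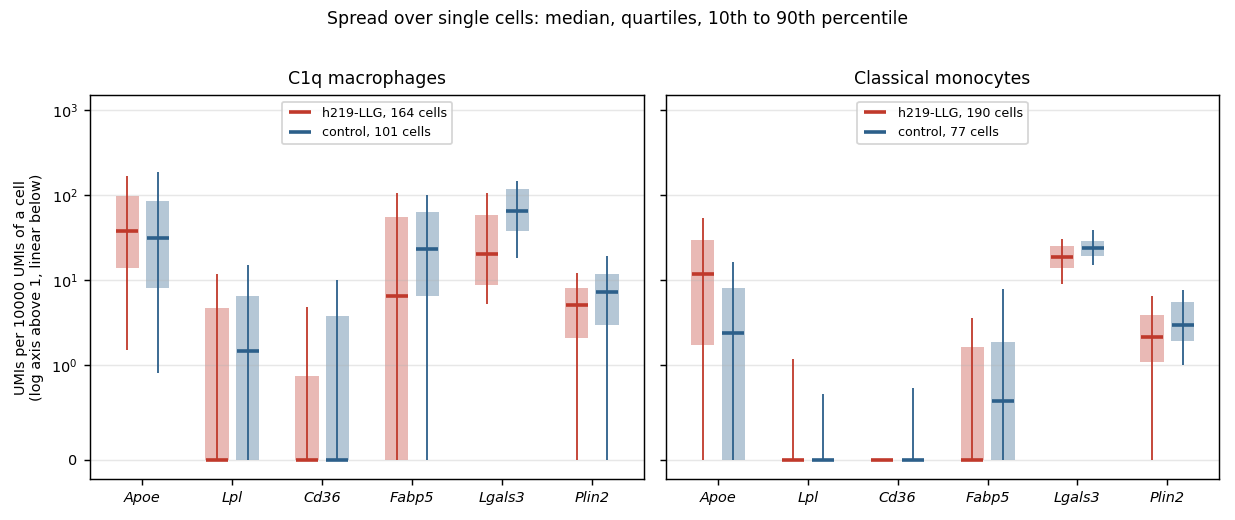
UMIs per 10000 UMIs of a cell (log axis above 1, linear below) for 6 members in C1q macrophages and classical monocytes; ticks are medians over cells, boxes quartiles, lines the 10th to 90th percentile. The median of Lgals3 in C1q macrophages is 20.5 with h219-LLG and 64.6 in control, and that of Apoe in monocytes 11.8 and 2.42.

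Neutrophils held few member UMIs. Lgals3 had 205 and 161 UMIs with a ratio of 0.541, but 44.7% of the control UMIs lay in 1 of 22 cells, without the cell of most UMIs in each library the ratio was 0.676, and Spp1 was at 3070 CPM in that gate of control against 8.11 CPM with h219-LLG. The part of macrophage RNA in these values was not tested. Of 4 measured members 1 (Apoe, 71 and 6 UMIs) was called higher and 3 lower, beside 12.2% and 21.5% of measured genes.

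Among dendritic cells, Fabp5 marked the migratory cells. They held 905 UMIs (2872 CPM) with h219-LLG and 331 (1705 CPM) in control, a ratio of 1.68 (1.48 to 1.92), found in 27 of 34 and 17 of 23 cells. The call was lost in thinned cells (1.11), as a mean over cells (1.24) and without interferon-gene cells (1.47). Of 3 measured members 2 were called higher and 1 lower, beside 10.3% and 9.9% of measured genes, but the other higher member, Apoe, had 91.3% of its 69 h219-LLG UMIs in 1 cell. Type 2 conventional dendritic cells held Lgals3 at 1645 and 1682 CPM, a ratio of 0.978 (0.886 to 1.08). Their Pltp rested on 47 and 3 UMIs (6.56, 2.11 to 32.9; 1.22 as a mean over cells), and with Apoe at 1.94 (1.37 to 2.8) made 2 of 5 measured members higher and 0 lower, beside 7.17% and 10.7% of measured genes. Type 1 conventional dendritic cells numbered 23 and 11, too few for a ratio. Lgals3 had 677 and 319 UMIs there (1856 and 1435 CPM). In plasmacytoid dendritic cells Lgals3 had 115 UMIs (316 CPM) and 131 (101 CPM), a ratio of 3.14 (2.42 to 4.06), in 14 of 39 and 30 of 105 cells, with 45.2% of the h219-LLG UMIs in 1 cell. With the gate minimum doubled it was at 0.964. It was the single call among 4 measured members, beside 6.79% of measured genes called higher and 12.6% lower.

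In T cells, Elovl6, the fatty acid elongase, was lower with h219-LLG. Naive-like T cells (gated on naive cell markers such as Lef1 and Tcf7, without Gzmb, Pdcd1 and Foxp3) held 579 Elovl6 UMIs in h219-LLG cells (29.0 CPM, 26.7 to 31.5) and 1774 in control cells (107 CPM, 102 to 112). The ratio was 0.271 (0.246 to 0.297), and it ranked number 8 from the lowest of 10496 measured genes. Because the members were chosen with earlier results of these data known, the rank is a description and no independent support. Elovl6 was found in 14.9% of 3049 and 42.2% of 2205 of these cells, at medians of 5908 and 7007 UMIs, and in 1.27% and 0.763% of B cells. After thinning the shares were 2.99% and 9.93%, against 0.393% and 0.294% of B cells. Naive-like T cells carried 73.5% and 83.4% of the Elovl6 UMIs of the libraries.

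The lower Elovl6 level was found in the cells with Cd8a, with 320 and 766 UMIs (ratio 0.301, 0.263 to 0.343, beside 4.93% of measured genes called lower and 9.29% higher), and in those with Cd4, with 128 and 549 UMIs (0.222, 0.182 to 0.27, beside 4.43% and 12.2%). This split was added after the values were seen. Other T cell gates had the same direction. T cells with Gzmb held 16 and 70 UMIs (0.198, 0.107 to 0.344), T cells with Foxp3 22 and 58 (0.627, 0.365 to 1.04), and T cells in none of these classes 30 and 71 (0.431, 0.272 to 0.67). In the last of these, 2 of 8 measured members were called higher and 2 lower, beside 8.95% and 7.96% of measured genes. In cycling lymphocytes, which overlap the other gates, 4 of 9 members were called higher and 1, Elovl6 at 0.283 (25 and 76 UMIs), lower, beside 13.1% and 9.22%. NK cells, with 15 and 24 UMIs or 29.4 (16.5 to 48.5) and 24.9 (15.9 to 37) CPM, had too few UMIs for a ratio, and their intervals overlap. There 0 of 2 measured members were called higher and 1 (Apoe, 13 and 120 UMIs) lower, beside 6.21% and 7.86% of measured genes. Spp1 was at 96.1 and 1360 CPM in NK cells, and without myeloid UMIs too few Apoe UMIs were left for a ratio. Across the alternatives tried, the Elovl6 ratio in naive-like T cells stayed between 0.251 and 0.28. Interferon-stimulated genes reached 5 UMIs in 85 and 282 naive-like T cells, and these alternatives include leaving such cells out.

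Most Apoe, Lpl and Lgals3 UMIs of naive-like T cells lay in cells that also held myeloid UMIs, and C1qa, the macrophage marker, was at 43.4 and 14.4 CPM in this gate. In naive-like T cells Apoe counted 4146 and 1554 UMIs with a ratio of 2.21, and Lpl 580 and 76 with 6.33. Together with Pltp (236 and 99 UMIs, 1.98) they made 3 of 9 members higher, and 1 was lower, beside 11.9% and 3.98% of measured genes. In the 2450 and 1919 of these cells without a UMI of Lyz2, C1qa, C1qb, C1qc, Cd68 or Csf1r, 193 and 90 Apoe UMIs and 4 and 3 Lpl UMIs remained, 3407 and 2668 Lgals3 UMIs went to 184 and 228, and Elovl6 was at 455 and 1581 UMIs with a ratio of 0.268. Apoe (1.99) was the 1 member of 6 measured called higher and Elovl6 the 1 lower, beside 8.55% and 4.97%. This selection was added after the values were seen. In T cells with Gzmb, Apoe went from 377 and 206 UMIs to 7 and 2 in the same way. Before that selection, 4 of 5 measured members were called higher there and 1 lower, beside 20.5% and 6.85% of measured genes. Of these members Apoe (1.58) was at 1.36 with TMM scaling. Lgals3 stayed higher in these cells, with 123 UMIs (231 CPM) and 34 (60.5 CPM) and a ratio of 3.82 (2.6 to 5.77), in 34 of 76 and 16 of 74 cells, beside 19.7% of measured genes called higher and 6.82% lower. Lgals3 in NK cells without myeloid UMIs was at 145 and 37.2 CPM (60 and 31 UMIs), the single measured member there and called higher, beside 6.34% and 7.76%. Over all NK cells it had 69 and 105 UMIs and a ratio of 1.24, and 45.7% of the control UMIs lay in 1 cell. In T cells with Foxp3, 1 of 7 measured members was called higher and 4 lower, beside 8.4% and 8.48% of measured genes. Apoe there went from 756 and 276 to 7 and 2 UMIs, and Lgals3, at 0.654 in the whole gate, was at 1.12 (56 and 105 UMIs). Of 3 measured members 1 (Fabp5) was then called higher and 1 (Plin2) lower, beside 6.82% and 11.5%.

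**Figure D5:**
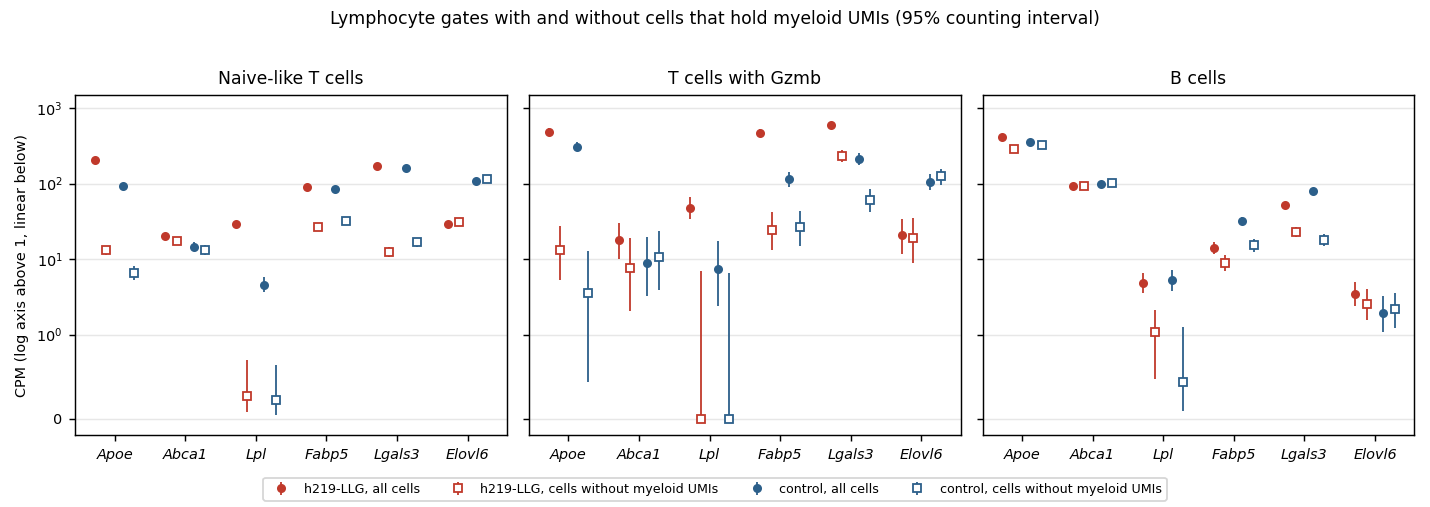
Level (CPM, log axis above 1, linear below) of 6 members in 3 lymphocyte gates, over all cells (filled circles) and over cells without UMIs of 6 myeloid genes (open squares), with exact 95% Poisson intervals. In naive-like T cells Apoe and Lpl drop between the circles and the squares and Elovl6 does not, and in B cells Apoe goes from 411 and 357 CPM to 290 and 327, and Abca1 stays near 100.

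In B cells, the export pair Apoe and Abca1 was counted with and without myeloid UMIs. Apoe had 3644 UMIs (411 CPM) and 2745 (357 CPM), and 2129 (290 CPM) and 2271 (327 CPM) in the 1952 and 1562 B cells without myeloid UMIs, where 38.9% and 40.7% of cells held it. Naive-like T cells selected in the same way held it in 7.27% and 3.96% of cells, although they were deeper. Abca1 had 817 and 760 UMIs (92.2 and 98.9 CPM) and stayed at 92.0 and 100.5 CPM without myeloid UMIs, in 25.6% and 31.5% of cells, against 8.9% and 7.66% of the naive-like T cells. B cells carried 51.0% and 59.5% of the Abca1 UMIs of the libraries. Between the libraries neither gene passed a limit in B cells, with ratios of 1.15 (1.10 to 1.21) and 0.933 (0.844 to 1.03), or 0.885 and 0.915 without myeloid UMIs. Of 8 measured members 2 were called higher and 2 lower in B cells, beside 7.92% and 3.87% of measured genes. Fabp5 was the lowest at 0.446 (126 and 245 UMIs), and 45.3% of the control UMIs of Fabp5 lay in 1 cell. Without the cell of most UMIs in each library Fabp5 was at 0.667. Without myeloid UMIs, 1 of 7 (Pltp) was called higher and 1 (Fabp5) lower, beside 6.99% and 4.15%.

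Across 14 gates in both libraries (28 sums, with gates of a library sharing its depth and free RNA), Lgals3 and Plin2 had the most similar pattern of any pair of members, with a Pearson r of 0.963 on log2(CPM + 1). For each member the most alike genes with at least 500 UMIs were Stab1, Fcgr2b and Itgb5 for Apoe (0.865 to 0.842), of which Stab1 is a scavenger receptor of macrophages, and Ccl2, C3ar1 and Trem2 for Lpl (0.836 to 0.813). Pgam1 and Pkm, enzymes of glycolysis, and Plin2 were closest to Lgals3 (0.93, 0.932 and 0.963). Lgals3, Pgam1 and Cstb were closest to Plin2 (0.963 to 0.929). Tmem106a, Basp1 and Bcl2a1a were closest to Fabp5 (0.892 to 0.846), Atp13a2, Slamf9 and Zcchc24 to Pltp (0.863 to 0.835), and St6galnac4, Vat1 and Apoe to Cd36 (0.808 to 0.797). Apoe, Man2a1 and A630033H20Rik were closest to Abca1, at a weaker 0.752 to 0.715. Itm2a, Gtf2i and Thy1, of which Thy1 is a T cell surface protein, were closest to Elovl6 (0.824 to 0.797).

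The other genes of these pathways were called in both directions in C1q macrophages, where 18.6% of measured genes were called higher and 5.06% lower. Of 14 listed cholesterol efflux and LXR genes 9 were measured, 2 were higher and 0 lower. They were Lpcat3, a phospholipid acyltransferase, at 1.71 (39 and 11 UMIs, interval 0.858 to 3.7), and Abcg1, a cholesterol exporter, at 1.62 (1.05 to 2.6). Nr1h2, which encodes an LXR, was at 0.86 and the cholesterol ester hydrolase Nceh1 at 0.749. Of 16 sterol synthesis and uptake genes 10 were measured and 2 were lower: Cyp51 at 0.42 (0.293 to 0.6) and Sqle at 0.66 (0.391 to 1.13), both enzymes of cholesterol synthesis. Hmgcs1 was the highest of that list at 1.19. Of 15 fatty acid synthesis genes 6 were measured. Acly, which supplies cytosolic acetyl-CoA, was higher at 2.7 (1.87 to 3.98, 196 and 35 UMIs), the desaturase Scd2 lower at 0.522 (0.323 to 0.845), and Elovl5 (1.39) and Acsl4 (0.795) between.

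Of 11 uptake and binding genes 6 were measured and 2 were higher: Olr1, a receptor for oxidized lipoproteins, with 49 and 2 UMIs (11.8, 3.1 to 100.2), and the lysosomal Scarb2 at 2.21 (1.49 to 3.37). Fabp4 (1.06) and Lrp1 (1.17) were the lowest. Of 11 droplet genes 4 were measured and 1 was lower: Hilpda, a droplet protein induced by low oxygen, at 0.407 (0.324 to 0.512), beside Plin3 at 0.75 and Abhd5 (0.887) and Pnpla2 (1.498) at the upper end. Of 14 PPAR and fatty acid oxidation genes 9 were measured, and 1 was higher, Hadhb at 1.5 (0.954 to 2.43). Cpt1a (1.44), Pparg (0.923) and Acadm (0.836) were between. The 10 lipid-associated macrophage genes were all measured, with 1 lower, Cd63 at 0.614 (0.542 to 0.695). Trem2, a lipid-sensing receptor, was at 0.736 (0.621 to 0.875), Spp1 at 1.22 and Gpnmb at 1.49.

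Fewer list genes were measured in Spp1 or Arg1 macrophages, where 9.42% of measured genes were called higher and 12.5% lower. Of 6 efflux and LXR genes 2 were lower there, Abcg1 at 0.42 (0.248 to 0.703) and Nceh1 at 0.527 (0.35 to 0.793), with Soat1 (0.762) and Lipa (0.805) the highest. Abcg1 was thus lower in this gate and higher in C1q macrophages, a difference that was not tested. Acly was higher at 2.32 and Scd2 was at 0.943, the sterol synthesis gene Msmo1 was at 1.35, and Hilpda was lower at 0.604. None of 3 uptake genes was called, with Scarb2 at 0.761, Lrp1 at 0.828 and Msr1 at 1.39, and none of 2 oxidation genes, Etfb at 1.06 and Hadha at 1.09. Of 9 lipid-associated macrophage genes 1 was higher, Spp1, which also served as a gate gene, and 4 were lower, with Ctsl at 0.587 and Cd63 at 0.596 the lowest and Trem2 at 1.32.

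In naive-like T cells, where 11.9% of measured genes were called higher and 3.98% lower, the list closest to Elovl6 is fatty acid synthesis, elongation and activation. Of 15 listed genes 13 were measured, with 1 higher and 1 lower. The lower was Acsl3, an acyl-CoA synthetase, at 0.407 (0.34 to 0.485, 190 and 387 UMIs), which was lower in B cells too (0.514, 167 and 282 UMIs). The higher in naive-like T cells was Scd1, a desaturase, at 1.53 (35 and 19 UMIs, interval 0.85 to 2.83). The elongases Elovl1 (1.34) and Elovl5 (0.718) and the fatty acid synthase Fasn (1.05) were between the limits. All 16 sterol synthesis and uptake genes were measured there, and 4 were higher and 1 lower. Lss (2.04), Nsdhl (1.73) and Dhcr7 (1.58) were among the higher, and the lower was Cyp51 at 0.579 (0.506 to 0.662). Cyp51 was thus called lower in naive-like T cells and in C1q macrophages. It was not called in classical monocytes (1.21, 0.83 to 1.79) or in B cells (0.898, 0.725 to 1.11).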

How the data were processed

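The authors deposited raw UMI counts per gene and barcode from Cell Ranger 5.0.0 on mm10 (submitters' processing notes), for barcodes already called as cells and without cell types. Barcodes were dropped below 200 genes or 500 UMIs, or with 10% or more of UMIs mitochondrial, and the highest doublet scores (0.8% per 1000 barcodes: 524 and 275 cells) were removed. The score was the share of simulated doublets, 2 per cell, among neighbors on 30 components of 2000 genes. Gates were rules on marker UMIs, with at most 1 UMI of the B, T or NK cell markers of another lineage; T, B and NK cell gates had no limit on myeloid UMIs. UMIs were summed per gate and library (Python 3.11.15, numpy 2.4.6, scipy 1.17.1, scikit-learn 1.9.0). CPM had exact Poisson intervals, shares exact binomial (Clopper-Pearson) intervals, and ratios an interval from the exact binomial split of the counts. For Lpl at 0 in plasmacytoid dendritic cells, the level of 3 UMIs of the gate is given beside the exact interval. On simulated data for C1q macrophages, intervals covered the simulated ratio for 48 of 50 genes at 0.5 and for 47 of 50 at 2. These data were Poisson draws of summed UMIs, without the gathering of UMIs in single cells. They therefore check the calculation and not the coverage for real counts. At a simulated ratio of 1, 181 of 4702 genes were still called higher and 119 lower. Alternatives used edgeR 4.0.16 for TMM factors, other scalings, filters, gates and thinning to 1000 UMIs. Coordinates are from GENCODE vM21 for 9 of 9 genes. RefSeq promoters were listed for 7 of 9. The members, gene lists and rules were chosen with earlier results of these data known. Named list genes are the 2 highest and 2 lowest ratios of each list in both macrophage gates, and alike genes the 3 of highest correlation; a few genes of the lists and gates are not reported here. Where other genes or subsets are named, they were chosen after their values were seen. Figures used matplotlib 3.10.9.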

Additional observations from a re-analysis of the deposited data

Results flagged for a closer look

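For 5 members the ratio between the libraries was past a limit in opposite directions in different gates, with an interval that left out 1 in both. The differences between gates were not tested, and each rests on 1 library per group. Lgals3 was at 0.489 in C1q macrophages and 3.14 in plasmacytoid dendritic cells, where 1 cell held 45.2% of the h219-LLG UMIs. Fabp5 was at 0.333 in neutrophils (29 and 37 UMIs) and 4.14 in T cells with Gzmb, where 76.9% of the h219-LLG UMIs lay in 1 cell. Plin2 was at 0.552 in neutrophils and 2.74 in T cells with Gzmb (57 and 18 UMIs). In the latter gate it ranged from 1.07 to 2.95 over the alternatives, and too few of its UMIs were left for a ratio without myeloid UMIs. Cd36 was at 0.324 in classical monocytes and 1.53 in B cells (74 and 42 UMIs). Apoe was at 0.205 in NK cells (13 and 120 UMIs) and 14.2 in migratory dendritic cells, where 91.3% of 69 h219-LLG UMIs lay in 1 cell. In NK cells without myeloid UMIs too few Apoe UMIs were left for a ratio. By this rule Apoe was higher in 8 gates and lower in 1. The rule left out cycling lymphocytes and the T cells outside the Foxp3, Gzmb and naive-like gates.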

How the results depend on the processing

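In C1q macrophages 1 member was called higher, and 0 were in thinned cells, where 5 of the 8 members could be measured, or as a mean over cells; 5 were lower, and 3 were with these settings or without interferon-gene cells. The 3 in thinned cells were Lgals3, Plin2 and Lpl, and the 3 as a mean over cells Lgals3, Cd36 and Lpl, of which Lpl was not among the 5. Apoe ranged from 0.968 to 1.33 there. In Spp1 or Arg1 macrophages 1 was higher, 2 as a mean over cells or without interferon-gene cells and 3 with no minimum of UMIs; 0 were lower, 1 in thinned cells, as a mean over cells or without the cell of most UMIs, and 2 with the gate minimum doubled or without interferon-gene cells. The cause of these changes was not tested. Without interferon-gene cells, 17.7% of measured genes were called higher and 4.46% lower in C1q macrophages. In Spp1 or Arg1 macrophages these shares were 10.9% and 13.9%. For the other settings of this paragraph the share over all genes was not computed, so their counts of members have no background beside them. In C1q macrophages Lgals3 ranged over the alternatives from 0.427 to 0.558, Cd36 from 0.317 to 0.459, Fabp5 from 0.59 to 0.827, Plin2 from 0.579 to 0.717, Pltp from 1.22 to 2.22, Abca1 from 0.536 to 0.904 and Lpl from 0.452 to 1.16, and Apoe in classical monocytes from 2.84 to 3.46. The following called ratios crossed 1. Without the cell of most UMIs in each library, added after the values were seen, Pltp was at 1.06 in classical monocytes. As a mean over cells, Lgals3 was at 1.65 in migratory dendritic cells and Cd36 at 0.995 in B cells. Without doublet removal Lgals3 was at 1.03 in migratory dendritic cells. Without interferon-gene cells it was at 2.18 there, Apoe at 0.213 and Fabp5 at 0.915 in T cells with Gzmb, and Fabp5 at 1.53 in T cells with Foxp3. With no UMI of other lineages Apoe was at 0.918 in T cells with Gzmb, and with the gate minimum doubled Apoe was at 0.539 in type 2 conventional dendritic cells and Lgals3 at 0.964 in plasmacytoid dendritic cells. Without myeloid UMIs, added after the values were seen, Fabp5 (1.53) and Lgals3 (1.12) in T cells with Foxp3 and Cd36 (0.844) and Lgals3 (1.28) in B cells crossed 1. No paired analysis was possible because there is 1 library per group. Members under 50 UMIs in a gate could not be given a ratio.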

Other observations

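Some barcodes of the CD45 sort carried melanoma genes (Pmel, Mlana, Dct and Tyrp1) at 10 or more UMIs and at least 1% of their UMIs. They numbered 6 with h219-LLG and 9 in control, and their Ptprc level was 4.91 and 15.2 CPM. Apoe was counted in them at 178 UMIs (875 CPM) and 509 UMIs (1105 CPM), Fabp5 at 51 and 236 UMIs, and Pltp at 0 in both. The number of cells is too small for a ratio.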
